A study of Mus musculus with 84 samples.

Results

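The comparison described here set the RNA of frontal cortex neurons of mice examined 7 days after 1 injection of the psychedelic 2,5-dimethoxy-4-iodoamphetamine (DOI) against that of mice examined 24 h after the same injection. Its members were the 8 RNA libraries labelled 7 days and the 8 labelled 24 h, 2 from each of 4 mice a side. These 16 libraries are part of 32 RNA libraries and of 84 samples in the whole series, whose chromatin samples were not analysed here. All mice were of the strain 129S6/SvEvTac, aged 12 weeks, with no engineered allele named, and both groups had received DOI, so that the groups differed in time after the drug and not in drug. Vehicle-injected mice of the same strain and age (n = 4) were not part of the comparison and are given only as a reference level. Nuclei positive for NeuN, the product of Rbfox3 and a protein of neuronal nuclei, had been sorted from 1 piece of frontal cortex, so the values describe nuclear RNA of a mixture of neurons. Within such a mixture, fewer cells of a type and less RNA per cell cannot be told apart. The design text numbers the mice within each group, so p-values measure the spread between animals.

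DOI is a psychedelic agonist of the serotonin 2A receptor, a receptor of cortical pyramidal neurons that acts through Gq, phospholipase C and calcium. Activity-dependent genes of cortical neurons follow such stimulation within minutes to hours, while changes of synapses and of chromatin are studied over days. Dopamine acts in the same cortex through D1-type receptors, which raise cyclic AMP, and D2-type receptors, which lower it. Both receptor types are most abundant in the projection neurons of the neighbouring striatum, which also make enkephalin and substance P.

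A single gene passed the threshold between the time points. Of 17941 genes tested with edgeR's quasi-likelihood test, 1 (0.00557%) had an adjusted p below 0.05, and it was Drd1, the dopamine D1 receptor, higher at 7 days. None was called lower by edgeR. At an unadjusted p below 0.05, which is no call, edgeR gave 2555 genes (14.2%), of which 1476 (8.23%) were higher and 1079 (6.01%) lower at 7 days. In 921 genes (5.13%) the 4 mice at 7 days did not overlap the 4 mice at 24 h, 433 of them (2.41%) higher and 488 (2.72%) lower. The second smallest edgeR adjusted p was 0.131. The count depended on the tool: DESeq2 called 393 of the 14459 genes for which it gave an adjusted p (2.72%), 227 higher (1.57%) and 166 lower (1.15%), and limma voom with quality weights called 21, 1 higher and 20 lower. Single mice moved it as well: edgeR called 308 genes without 7 days mouse 4, 251 without 7 days mouse 2, 3 without 7 days mouse 3, 6 without 24 h mouse 1, and 0 without 24 h mouse 2, 3 or 4. The count at an unadjusted p was 1646 without 7 days mouse 1 and 1615 without 7 days mouse 3. From here on, values of 4 mice are given in the order mouse 1, 2, 3 and 4, levels are in CPM (counts scaled to a common total) and differences are log2 fold changes of 7 days minus 24 h.

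**Figure D1:**
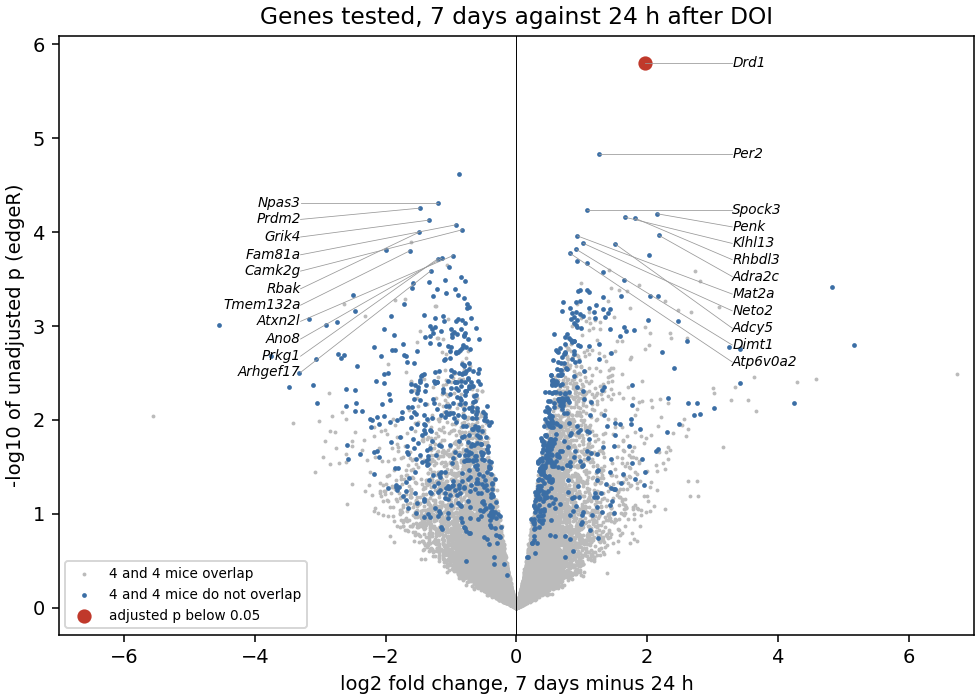
Each point is 1 of 17941 genes, with its log2 fold change (7 days minus 24 h) on the x axis and the -log10 of its unadjusted edgeR p on the y axis. Drd1 is the 1 gene past the adjusted threshold by edgeR, and the 23 labelled genes are protein-coding genes without overlap, from the 12 with the smallest p in each direction.

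The mice at 7 days varied more among themselves than those at 24 h. As the root mean square difference of log2 CPM over all genes tested, mice within the 24 h group were 0.590 to 1.02 apart (median 0.848), and mice within the 7 days group 0.653 to 1.37 apart (median 1.22). Between the groups the distance was 0.791 to 1.42 (median 1.04), which is below the median within the 7 days group. Mouse 1 and mouse 3 at 7 days were 1.10 and 1.07 from the mean of the 24 h mice, with 28.3% and 27.9% of genes more than 1 log2 unit away. Mouse 2 and mouse 4 at 7 days were 0.678 and 0.794 from that mean, with 11.4% and 15.2% of genes that far away. Among the 24 h mice, mouse 1 was 0.917 from the mean of the others, while mice 2, 3 and 4 were 0.591, 0.5998 and 0.619 away. The median standard deviation of log2 CPM was 0.404 at 24 h and 0.528 at 7 days, and it was larger at 7 days in 64.5% of genes. Against the mean of the vehicle mice the order was the reverse, with mouse 1 and mouse 3 at 0.5296 and 0.532 and mouse 2 and mouse 4 at 1.16 and 1.27. Over all genes tested, 7 days mice 1 and 3 thus lay nearer to the vehicle mice than to the 24 h mice, and mice 2 and 4 nearer to the 24 h mice than to the vehicle mice. No label gives a reason, and a difference between animals cannot be told apart from a mix-up of samples with these files. Measures of the libraries divided the 7 days mice in the same way: single-exon features took 1.89, 4.06, 1.98 and 4.23 percent of counts in 7 days mice 1 to 4, 1.82 to 2.25 percent in the vehicle mice and 3.52 to 4.96 percent in the 24 h mice. Mitochondrial genes took 0.0413, 0.1296, 0.02098 and 0.1137 percent in the 7 days mice, 0.0171 to 0.0701 percent in the vehicle mice and 0.0621 to 0.1007 percent in the 24 h mice, and the share of the ribosomal RNA feature CT010467.1 was divided likewise. The part of these measures in the results was not tested. Each 7 days mean and fold change below is therefore an average over mice that differed in this way. These values are a description, with no test, and no mouse was moved between groups or left out of the results below on their account.

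**Figure D2:**
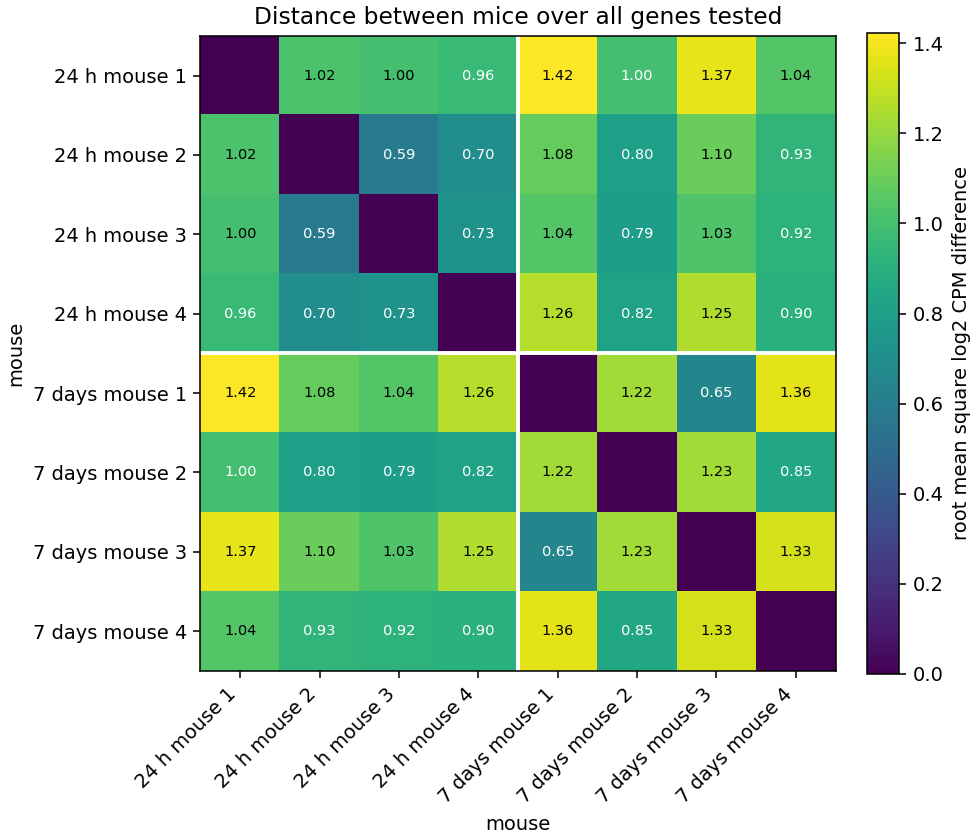
Each cell is the root mean square difference of log2 CPM between the mouse of its row and the mouse of its column, over 17941 genes; white lines part the 24 h mice from the 7 days mice. Distances within the 7 days group reach 1.37, while mouse 1 and mouse 3 at 7 days are 0.653 apart.

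Drd1 (chromosome 13, 54051183 to 54055705, GRCm38), which encodes the Gs-coupled dopamine receptor, was at 23.9, 29.02, 19.9 and 14.1 CPM in the 24 h mice. In the 7 days mice it was at 73.4, 126, 42.1 and 97.4 CPM. Every mouse at 7 days lay above every mouse at 24 h, and mouse 2 at 7 days was the highest. The mean was 21.7 CPM ± 6.32 (SD, n = 4) at 24 h and 84.8 CPM ± 35.7 (SD, n = 4) at 7 days, so that the log2 fold change was 1.97 (SE 0.29) and the adjusted p of edgeR 0.0281. The vehicle mice had 37.1, 45.8, 43.8 and 35.4 CPM, between the groups except that the lowest 7 days mouse fell within their range. The direction was the same in all 21 alternatives, with a log2 fold change from 1.71 to 2.20, and 15 of the 21 called the gene. The edgeR call was lost in the other 6: without 24 h mouse 2 (adjusted p 0.0531), without 24 h mouse 3 (0.0990) and without 24 h mouse 4 (0.225), in a fit of these 8 mice alone (0.526), with the mouse number as a replicate block (0.0788) and with scaling by total counts only (0.0556).

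Other markers of striatal projection neurons stood in the same direction as Drd1. The list of 16 such markers was written with earlier results of these data known, so its direction is a description and not independent evidence. Of its 16 members 14 passed the filter on low counts. All 14 had a positive log2 fold change, from 0.08 to 3.02, with a median of 1.80 against 0.005 over all genes tested. Of the 14, 5 did not overlap between the groups, all higher at 7 days, which is 35.7% of the list against 2.41% of all genes tested. By edgeR 1 of the 14 passed the threshold, by DESeq2 6 did (Drd1, Penk, Ppp1r1b, Rgs9 and Gpr6 among them, against 1.57% of all genes called higher by it), and 9 had an unadjusted edgeR p below 0.05 (against 8.23% of all genes, higher).

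Among the peptides of the list, Penk (chromosome 4, 4133531 to 4138819), the precursor of the enkephalins, was at 67.9, 128, 160.5 and 99.9 CPM at 24 h and 332, 941, 186 and 569.6 CPM at 7 days. Its groups did not overlap, although mouse 3 at 7 days was close to the highest mouse at 24 h. The log2 fold change was 2.15 (SE 0.42), with an edgeR adjusted p of 0.131, above the threshold. Tac1, the precursor of substance P, was at 11.7, 56.4, 40.2 and 62.97 CPM at 24 h and 58.8, 272, 41.1 and 188 CPM at 7 days, where mice 2 and 4 were above all 24 h mice and mice 1 and 3 were not. Pdyn, the precursor of dynorphin, overlapped, with 34.1 to 128 CPM at 24 h and 54.7 to 102 CPM at 7 days.

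Of the signalling members, Ppp1r1b, a dopamine-regulated inhibitor of protein phosphatase 1, was at 19.2, 14.3, 25.4 and 16.8 CPM at 24 h and 70.5, 72.6, 48.5 and 46.3 CPM at 7 days. Its groups were clear of each other and its 7 days mice were close together (log2 fold change 1.65, SE 0.38, adjusted edgeR p 0.131). Gpr6, an orphan receptor of striatal neurons, was at 7.92, 3.27, 10.8 and 2.37 CPM and 21.3, 70.9, 12.1 and 44.2 CPM, also without overlap (log2 fold change 2.61, SE 0.70, adjusted edgeR p 0.143). Drd2, the Gi-coupled dopamine receptor, was at 0, 1.49, 1.14 and 0.592 CPM and 3.05, 15.5, 1.99 and 6.16 CPM. A level of 3 counts was 0.371 to 0.466 CPM in the 24 h mice by total counts. Rgs9 (chromosome 11, 109225355 to 109298129), which speeds up the inactivation of G proteins, was at 8.53, 13.99, 11.3 and 20.4 CPM at 24 h and 18.6, 127, 8.99 and 126 CPM at 7 days. Only mice 2 and 4 at 7 days stood above the 24 h mice in Rgs9, by several fold, and mice 1 and 3 lay within the 24 h range. In Pde10a, a cyclic nucleotide phosphodiesterase, mice 2 and 4 were again the highest, with 126, 358, 94.9 and 384 CPM at 7 days against 71.6 to 132 CPM at 24 h. Adcy5, an adenylyl cyclase, was not on the list but was among the named genes, at 34.1, 52.4, 48.7 and 52.5 CPM at 24 h and 84.5, 228, 61.2 and 160.1 CPM at 7 days (log2 fold change 1.50, SE 0.32, adjusted edgeR p 0.131).

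The summed level of the 16 striatal markers was 537, 560.1, 636 and 513 CPM in the 24 h mice and 987, 2450.0, 691 and 1916 CPM in the 7 days mice, without overlap, and 612 to 719.5 CPM in the vehicle mice. Taken mouse by mouse, 7, 11, 6 and 13 of the 14 tested members lay above all 24 h mice in 7 days mice 1, 2, 3 and 4, where the shares of all genes tested that did so were 30.6%, 18.4%, 29.8% and 21.5%. Adora2a, the adenosine receptor of enkephalin neurons, was at 0, 0, 0 and 0.592 CPM at 24 h and 0, 6.39, 0 and 1.96 CPM at 7 days. Isl1, a transcription factor of D1 neurons, was at 0 in all 4 mice at 24 h and at 0.762, 4.71, 0 and 1.54 CPM at 7 days. Both were left out by the filter on low counts. Frontal cortex neurons express several of these genes as well, and the part that striatal tissue in the dissected piece has in the values of Drd1 and of the other markers was not tested.

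**Figure D3:**
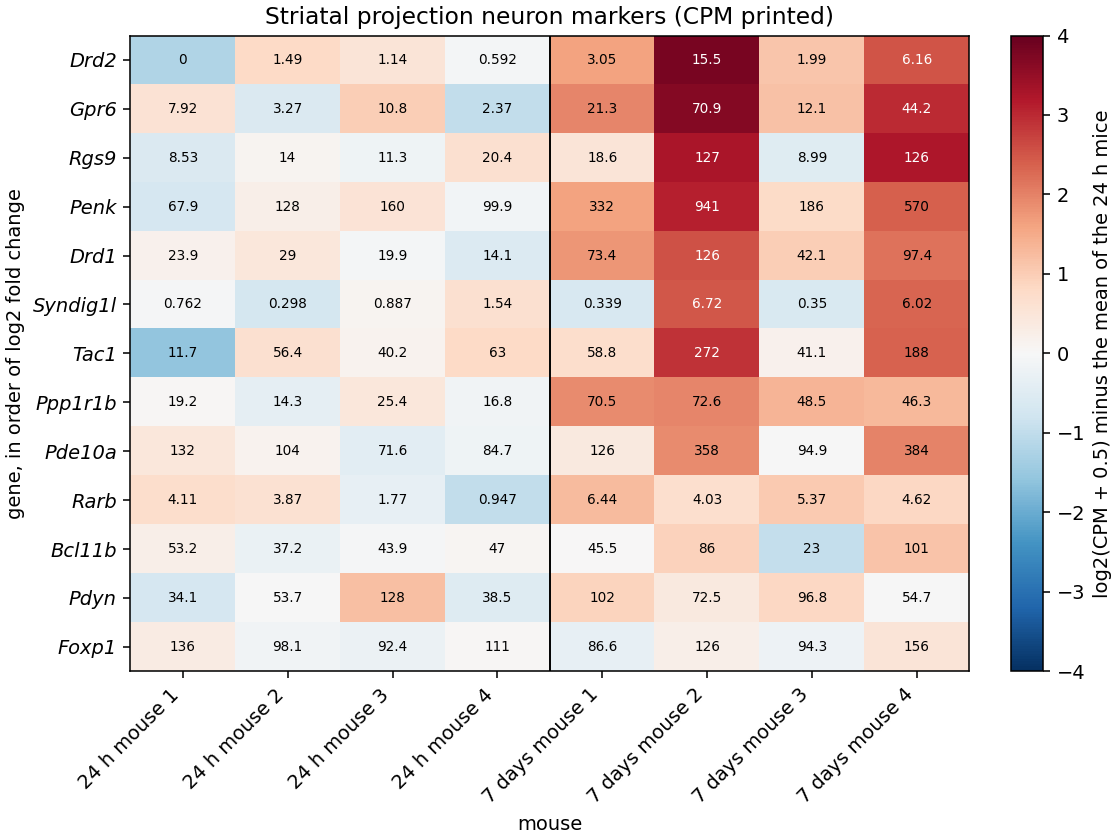
Rows are 13 of the 14 striatal markers tested and columns the 8 mice; the colour is log2(CPM + 0.5) minus the mean of the 24 h mice, and the printed number is the CPM. Drd1, Penk, Ppp1r1b, Gpr6 and Drd2 lie above the 24 h mice in all 4 mice at 7 days, whereas Rgs9, Pde10a and Tac1 do so only in mice 2 and 4; mice 2 and 4 are also the highest in Drd1, Penk, Gpr6 and Drd2.

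The promoters of the 5 markers without overlap were looked up to show what the genes that stood together have at their starts; 3 of the 5 had an entry (Drd1, Drd2 and Gpr6), from RefSeq on GRCm38.p6. Cyclic AMP signalling, which D1 receptors raise, acts on DNA through the cyclic AMP response element TGACGTCA and its shorter form TGACG. The 250 bases before each start are printed 5′ to 3′ on the strand of the gene, in lower case, with TGACG on either strand in capitals:
Drd1 (chr13:54055659-54055908, minus strand): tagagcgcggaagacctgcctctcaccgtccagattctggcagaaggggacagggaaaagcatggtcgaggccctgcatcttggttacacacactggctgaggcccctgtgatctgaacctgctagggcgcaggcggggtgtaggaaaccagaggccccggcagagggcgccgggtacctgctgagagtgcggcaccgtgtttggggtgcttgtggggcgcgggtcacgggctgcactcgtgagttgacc
Drd2 (chr9:49340153-49340402, plus strand): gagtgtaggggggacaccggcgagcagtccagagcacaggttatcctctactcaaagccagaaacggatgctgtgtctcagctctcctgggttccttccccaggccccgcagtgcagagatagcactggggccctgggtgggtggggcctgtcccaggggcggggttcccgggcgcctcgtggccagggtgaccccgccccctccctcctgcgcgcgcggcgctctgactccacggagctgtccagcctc
Gpr6 (chr10:41072291-41072540, minus strand): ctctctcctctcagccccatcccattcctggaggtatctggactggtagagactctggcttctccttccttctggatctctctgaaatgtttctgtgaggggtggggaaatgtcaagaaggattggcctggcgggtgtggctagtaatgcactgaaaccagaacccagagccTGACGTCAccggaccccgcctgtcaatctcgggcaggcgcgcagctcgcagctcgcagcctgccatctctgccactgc
In Gpr6 the capitals mark 1 full TGACGTCA, which is made of 2 overlapping short forms and begins 78 bases before the start. Of 32851 promoter windows of the same length, 1.55% held the full element and 17.8% held the short form on either strand. The printed windows of Drd1 and Drd2 held neither. Drd1 has 2 windows in the table, of which the one farther upstream is printed, and the other held neither as well.

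Outside the striatal list, the gene with the smallest p was Per2 (chromosome 1, 91415982 to 91459324), a repressor of the circadian clock. It was at 38.1, 39.3, 47.04 and 42.1 CPM at 24 h and 89.2, 100.2, 121 and 87.9 CPM at 7 days, with a wide gap between the highest mouse at 24 h and the lowest at 7 days. The log2 fold change was 1.26 (SE 0.22) and the adjusted p of edgeR 0.131, not past the threshold, and 6 of 21 alternatives called it. Vehicle mice had 31.6, 72.9, 67.0 and 54.1 CPM. Of the 19 clock genes tested, 2 did not overlap upwards (Per2 and Dbp, 10.5% against 2.41% of all genes) and 1 downwards (Csnk1d, 5.26% against 2.72%), with a median log2 fold change of 0.005. Dbp, a transcription factor driven by the clock, was at 17.4, 17.3, 17.5 and 15.2 CPM at 24 h and 30.6, 24.8, 31.3 and 19.9 CPM at 7 days. Cry1, a partner of the Per proteins, was at 18.4, 14.1, 14.7 and 7.81 CPM and 31.4, 17.4, 33.4 and 24.4 CPM, overlapping, with an edgeR adjusted p of 0.168. Nr1d1, a clock repressor, stood in the other direction, at 19.2, 48.96, 53.9 and 67.5 CPM and 16.3, 27.01, 16.8 and 30.1 CPM. The core activators Clock and Arntl had log2 fold changes of 0.02 and -0.07. The labels give no time of day at which the tissue was taken.

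The other genes with the smallest p on the higher side included signalling molecules, enzymes and a receptor subunit. None passed the threshold by edgeR, and each had an edgeR adjusted p of 0.131. Spock3, a secreted proteoglycan, was at 80.3, 107, 134 and 79.2 CPM at 24 h and 234, 229, 195 and 188 CPM at 7 days (log2 fold change 1.08, SE 0.21). Klhl13, an adaptor of a ubiquitin ligase, was at 5.33, 11.01, 18.1 and 8.99 CPM and 48.5, 32.5, 22.2 and 34.3 CPM (1.66, SE 0.33). Adra2c, a Gi-coupled receptor for noradrenaline, was at 1.68, 2.08, 1.77 and 2.25 CPM and 10.4, 11.4, 9.57 and 3.92 CPM (2.18, SE 0.45). In Adra2c the 24 h mice were tightly grouped and mouse 4 was the lowest of the 7 days mice. Mat2a, which makes the methyl donor S-adenosylmethionine, was at 784, 712, 1021 and 708 CPM and 1687, 1253, 1946 and 1266 CPM (0.93, SE 0.19). Neto2, an auxiliary subunit of kainate receptors, was at 87.1, 76.8, 112 and 83.1 CPM and 227, 157, 194 and 151 CPM (1.02, SE 0.21). Rhbdl3, a rhomboid-like membrane protein, was at 2.89 to 6.99 CPM at 24 h and 11.3 to 23.97 CPM at 7 days. The last members were Dimt1, a methyltransferase of ribosomal RNA, and Atp6v0a2, a subunit of the vesicular proton pump, with log2 fold changes of 0.91 (SE 0.19) and 0.82 (SE 0.17). In Mat2a, Neto2, Dimt1 and Atp6v0a2 mice 1 and 3 were the highest of the 7 days mice, the reverse of the order in Rgs9. Vehicle levels were 188 to 297 CPM for Spock3, 1064 to 1596 CPM for Mat2a and 222 to 258 CPM for Neto2.

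On the lower side the smallest p belonged, among others, to genes of kinases, a receptor and chromatin. Again none passed by edgeR, and each of the 12 had an edgeR adjusted p of 0.131. Camk2g, a subunit of calcium/calmodulin-dependent kinase II, was at 149, 108, 140.2 and 115 CPM at 24 h and 68.1, 79.3, 75.5 and 65.2 CPM at 7 days (log2 fold change -0.83, SE 0.17), and vehicle mice had 73.97 to 96.1 CPM. Its groups stood clear of each other. Prkg1, the kinase of cyclic GMP, was at 20.6, 20.1, 16.2 and 15.98 CPM and 6.86, 11.4, 7.94 and 5.46 CPM (-1.20, SE 0.26). Grik4, a kainate receptor subunit, was at 64.1, 68.8, 34.5 and 53.9 CPM and 13.4, 28.1, 17.9 and 28.5 CPM (-1.33, SE 0.27). Neto2 and Grik4, an auxiliary and a pore-forming subunit of the same receptor family, thus lay on opposite sides.

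Among transcription and chromatin genes, Npas3, a transcription factor, was at 26.4, 16.5, 20.8 and 15.03 CPM at 24 h and 7.11, 10.3, 9.11 and 7.696 CPM at 7 days (-1.20, SE 0.23). Prdm2, a histone methyltransferase, was at 20.4, 17.9, 15.2 and 18.8 CPM and 5.08, 9.08, 4.55 and 7.28 CPM (-1.48, SE 0.28). Rbak, a zinc finger repressor, was at 18.4, 14.1, 9.26 and 10.9 CPM and 3.73, 6.84, 3.74 and 4.34 CPM (-1.50, SE 0.30). Vehicle mice had 11.1 to 12.5 CPM of Npas3, above all 4 mice at 7 days, and 5.003 to 7.74 CPM of Prdm2 and 3.02 to 4.22 CPM of Rbak, which overlapped the 7 days mice. Others were Fam81a, Tmem132a, Atxn2l, Ano8 and Arhgef17, with log2 fold changes of -0.92, -1.63, -0.97, -1.14 and -1.31. Fam81a had the tightest 24 h group of these, 246, 255, 241 and 228 CPM, against 123, 139.8, 86.05 and 164 CPM at 7 days. Arhgef17, an exchange factor of small GTPases, was at 16.3, 55.1, 19.4 and 36.4 CPM at 7 days, so that its 7 days mice differed from each other by more than its 24 h mice, which were at 62.9, 80.1, 88.9 and 83.8 CPM. The counting did not use strand, so reads of a gene and of one on the other strand at the same place cannot be told apart. Prdm2 and Prkg1 overlap 3 such genes each, Npas3, Atp6v0a2, Slk, Nrn1, Dusp3, Gabra5, Sema6d, Srrm2 and Fkbp5 overlap 2 each, and Penk, Spock3, Mat2a, Neto2, Adcy5, Dimt1, Tmem132a and Ano8 overlap 1 each, and some other genes named below also overlap 1.

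**Figure D4:**
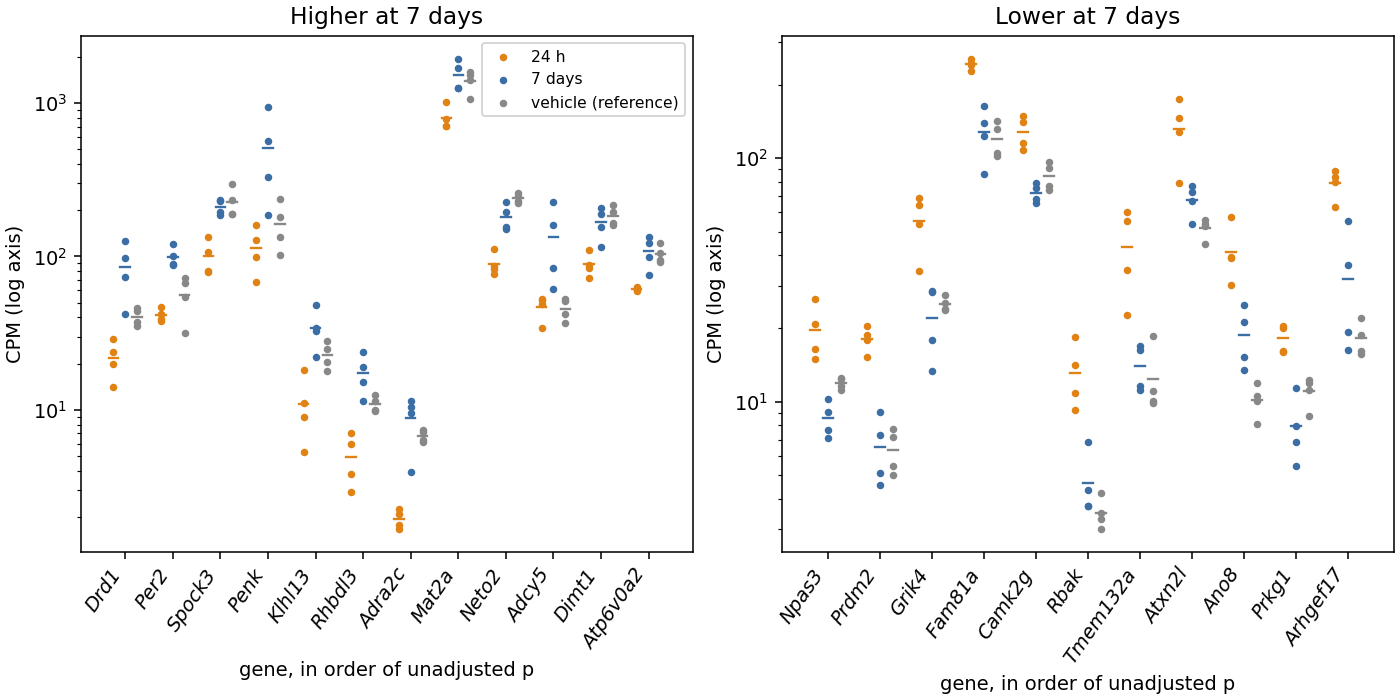
Points are single mice and bars the means of 4 mice, in CPM on a log axis, for 23 of the genes with the smallest p that did not overlap (left 12 higher, right 11 lower at 7 days). Vehicle mice are shown as a reference level; Drd1 alone passed the adjusted threshold by edgeR.

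The remaining 37 lists held 661 distinct genes that were tested, none of which passed the threshold by edgeR. Of these 661, 57 (8.62%) were higher and 71 (10.7%) lower at an unadjusted edgeR p below 0.05, against 8.23% and 6.01% of all genes, and DESeq2 called 8 higher and 16 lower (against 1.57% and 1.15% of the genes to which it gave an adjusted p). In 14 (2.12%) and 27 (4.08%) the groups did not overlap, against 2.41% and 2.72%.

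For the drug's own receptor, Htr2a (chromosome 14, 74640840 to 74709494), the 24 h mice were at 41.4, 55.7, 93.3 and 55.3 CPM and the 7 days mice at 127, 102, 91.2 and 97.7 CPM. Mouse 3 at 24 h lay above mouse 3 at 7 days, so the groups overlapped (log2 fold change 0.77, SE 0.24, adjusted edgeR p 0.179). Vehicle mice were at 122, 143, 122 and 141 CPM, above all 24 h mice and overlapping the 7 days mice. None of the 13 serotonin receptors tested was free of overlap (against 5.13% of all genes), and their median log2 fold change was 0.34. Htr2c, another Gq-coupled receptor that DOI binds, was at 21.3, 20.5, 23.96 and 20.2 CPM at 24 h and 13.8, 45.3, 8.52 and 42.96 CPM at 7 days, where mice 2 and 4 lay above the 24 h mice and mice 1 and 3 below them. Htr1a, a Gi-coupled receptor, had 3.55 to 14.6 CPM at 24 h and 9.64 to 16.2 CPM at 7 days.

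Downstream of Gq, 1 of 18 members did not overlap and was lower (5.56% against 2.72%). This was Grk2, a kinase that desensitises receptors, at 32.3, 45.2, 43.2 and 43.1 CPM at 24 h and 14.3, 30.4, 12.03 and 28.7 CPM at 7 days (edgeR adjusted p 0.174). Dgkz, which removes diacylglycerol, was at 53.2, 107, 105 and 91.8 CPM and 29.3, 42.02, 44.6 and 53.5 CPM, with a log2 fold change of -1.08 (SE 0.25). Of 14 RGS regulators, Rgs12 alone did not overlap (7.14% against 2.41%), at 29.4 to 41.96 CPM at 24 h and 42.1 to 49.1 CPM at 7 days. Rgs14 and Rgs11 had the reverse order of Rgs9 at 7 days, with 94.8, 25.6, 82.1 and 21.97 CPM of Rgs14 and 632, 303, 958 and 305 CPM of Rgs11.

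Genes that neuronal activity induces gave no call by edgeR. Of 17 activity-regulated transcription factors tested, 2 did not overlap upwards (11.8% against 2.41% of all genes) and 1 downwards (5.88% against 2.72%), with a median log2 fold change of -0.10. Nr4a2, a nuclear receptor, was at 65.3, 6.25, 58.2 and 10.7 CPM at 24 h and 87.3, 83.2, 97.4 and 78.8 CPM at 7 days, a narrow 7 days group above a scattered 24 h group (log2 fold change 1.30, SE 0.74, adjusted edgeR p 0.442). Egr3 stood lower, at 24.4, 21.1, 28.5 and 39.4 CPM and 20.3, 11.99, 17.5 and 15.4 CPM, and Egr2 higher at 0.298 to 2.74 and 2.801 to 5.504 CPM. Fos had 3.05, 7.74, 33.6 and 27.3 CPM at 24 h and 49.03, 30.5, 28.6 and 24.8 CPM at 7 days, with overlap. Npas4, Junb and Egr4 were under 5 CPM in all 8 mice, and Atf3 was at 0 in all 8. Of 23 effectors of activity 2 were lower without overlap (8.70% against 2.72%). Nrn1, a neurite growth factor, was lower without overlap, at 17.8, 20.5, 25.4 and 21.9 CPM and 9.48, 14.9, 10.2 and 10.2 CPM (log2 fold change -0.94, SE 0.22, adjusted edgeR p 0.131), and so was Inhba, a subunit of activin, at 36.1 to 49.4 and 17.98 to 33.4 CPM. Plk2, a kinase of synaptic scaling, was at 349.9, 422, 512 and 334 CPM and 829.7, 455, 976 and 421 CPM. In the feedback on MAP kinases none of 15 members tested was free of overlap (against 5.13% of all genes). Dusp3, a phosphatase of these kinases, was at 16.9, 47.03, 55.1 and 42.7 CPM and 9.65, 17.8, 6.77 and 18.9 CPM; mouse 1 at 24 h lay inside the 7 days range, and the log2 fold change was -1.61 (SE 0.34).

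Glutamate receptors gave no call by edgeR in either direction. DESeq2 called 1, Grik4, lower (adjusted p 0.00159), where it called 1.15% of the genes to which it gave an adjusted p lower. With libraries as units under duplicateCorrelation, limma also called Grik4, Grin2b, Shisa7, Grin2a and Grin1 lower and Gria2 and Grm7 higher. Over all genes that setting called 581 lower and 374 higher. Of 21 AMPA and NMDA receptor genes, 6 had an unadjusted edgeR p below 0.05 on the lower side and 1 on the higher (against 6.01% and 8.23% of all genes). None of the 21 was free of overlap (against 5.13% of all genes), and DESeq2 called 0. Gria2, the subunit that keeps AMPA receptors from passing calcium, was at 3695, 2572, 2794 and 2595 CPM at 24 h and 4417, 3089, 5242 and 3569 CPM at 7 days. Grin2b, a juvenile NMDA receptor subunit, was at 893, 1097, 944 and 994 CPM and 329.7, 949, 286 and 939 CPM, and Grin2a at 794, 478, 563 and 526 CPM and 285, 509.9, 294 and 517 CPM. In both NMDA subunits mice 2 and 4 at 7 days lay within the 24 h range and mice 1 and 3 well under it. Grm5, the Gq-coupled glutamate receptor, was higher without overlap, at 378, 333, 273 and 289.5 CPM and 395, 398, 411 and 484 CPM (log2 fold change 0.41, SE 0.16, adjusted edgeR p 0.268). Of 14 metabotropic, kainate and delta receptors tested, 1 was higher and 1, Grik4, lower without overlap. Each was 7.14% of the list, against 2.41% higher and 2.72% lower of all genes. Among 13 GABA-A receptor subunits, 2 were higher without overlap (15.4% against 2.41%), among them Gabra5 at 70.6 to 87.9 CPM at 24 h and 89.5 to 162 CPM at 7 days.

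The lists of synaptic proteins held members without overlap in both directions. Of 13 calcium/calmodulin-dependent kinases 3 were lower without overlap, Camk2g, Camk2b and Camkk2 (23.1% against 2.72%). Camk2b was at 236, 273, 222 and 284 CPM at 24 h and 199.8, 215, 136 and 205 CPM at 7 days, and Camkk2 at 253, 174, 179 and 189.5 CPM and 107, 173, 141 and 159 CPM, each with only a small gap between the groups. Of 26 vesicle release genes 3 were lower without overlap, among them Syn1 and Unc13a (11.5% against 2.72%). Unc13a, a priming factor, was at 159.6, 189.6, 160.5 and 182 CPM and 50.98, 140.1, 59.9 and 146 CPM (log2 fold change -0.80, SE 0.28, adjusted edgeR p 0.206). Of 21 postsynaptic scaffolds 2 were lower without overlap, Iqsec2 and Dlgap4 (9.52% against 2.72%). Iqsec2, an exchange factor for Arf proteins, was at 6.98 to 14.7 CPM and 4.49 to 5.74 CPM. Adhesion molecules were split: of 21, Lrrtm2 and Lrrtm4 were higher without overlap (9.52% against 2.41%) and Nrxn2 and Ptprs lower without overlap (9.52% against 2.72%). Ptprs, a receptor phosphatase that organises synapses, was at 321, 423, 352 and 369 CPM and 186, 272, 193 and 255 CPM (log2 fold change -0.69, SE 0.17, adjusted edgeR p 0.131). Lrrtm2, a postsynaptic partner of neurexins, was at 51.3, 84.7, 83.4 and 74.6 CPM and 158, 92.8, 102 and 126 CPM, while Nrxn2, a neurexin, was at 28.8, 40.03, 27.5 and 30.4 CPM and 14.1, 18.6, 15.8 and 23.2 CPM. Axon guidance was also split, with Nrp2, Sema3a and Sema3e higher (8.33% against 2.41%) and Plxnb1 and Sema6d lower (5.56% against 2.72%) of 36, each without overlap. Plxnb1, a semaphorin receptor, was at 6.85, 7.44, 6.97 and 6.63 CPM and 2.46, 2.69, 1.87 and 4.198 CPM (log2 fold change -1.32, SE 0.35, adjusted edgeR p 0.141). None of 30 potassium channels and none of 27 sodium, calcium and HCN channels was free of overlap (against 5.13% of all genes).

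Regulators of histone acetylation and of the H3K27 mark, which the chromatin samples of the series concern, had a median log2 fold change of -0.27 over 26 genes, with 18 negative. Of the 26, 3 were lower without overlap (11.5% against 2.72%), among them Kdm6b and Hdac7. In 7 days mice 1, 2, 3 and 4 the median log2 difference of the list from the 24 h mean was -0.487, -0.096, -0.514 and -0.023. Kdm6b, a demethylase of H3K27, was at 20.6, 10.4, 14.2 and 15.03 CPM and 7.198, 6.39, 7.59 and 9.79 CPM, and Hdac7, a deacetylase, at 18.1, 24.4, 17.9 and 26.9 CPM and 7.79, 14.5, 14.01 and 13.99 CPM. The edgeR adjusted p was 0.208 for Kdm6b and 0.208 for Hdac7. Ribosomal protein genes had a median of -0.33 over 48 genes, 40 of them negative, none without overlap (against 5.13% of all genes). Mouse by mouse, 33, 2, 37 and 6 of the 48 lay below all 24 h mice in 7 days mice 1, 2, 3 and 4, where 31.5%, 19.0%, 31.2% and 21.5% of all genes did. Their summed level was 2033, 2283, 2124 and 2688 CPM at 24 h, 1517, 2492, 1326 and 2221 CPM at 7 days and 1188 to 1479 CPM in vehicle mice. Splicing factors (28), chaperones (21) and glucocorticoid targets (14) had no member without overlap (against 5.13% of all genes). Srsf7, a splicing factor, was at 755, 452, 629 and 483 CPM and 1227, 669, 1781 and 718 CPM, and Srrm2, a spliceosome scaffold, at 170.4, 264, 182 and 310.5 CPM and 939.6, 185, 1119 and 268 CPM. In Srrm2 mice 1 and 3 at 7 days were above all 24 h mice and mice 2 and 4 among them.

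Several genes were far apart in some 7 days mice and level with the 24 h mice in others. Srpr (chromosome 9, 35200175 to 35247973), the receptor for the signal recognition particle, was at 6.397, 9.08, 6.47 and 7.46 CPM at 24 h and 94.2, 8.07, 85.7 and 7.28 CPM at 7 days, and 88.3 to 129 CPM in vehicle mice. Rragb (chromosome X, 153139981 to 153171943), a Rag GTPase that reports amino acids to mTOR, was at 6.09, 6.102, 11.5 and 7.69 CPM, 119, 5.49, 67.6 and 9.52 CPM and 91.5 to 139 CPM in the same order. Srpr overlaps 3 genes of the other strand. In both genes mice 1 and 3 at 7 days were near the vehicle level and mice 2 and 4 near the 24 h level. The edgeR log2 fold changes were 2.73 (SE 0.61) and 2.68 (SE 0.66), with an adjusted p of 0.131 each, and the fold change averages over mice that do not lie near it. Spry2, an inhibitor of receptor tyrosine kinase signalling, was at 114, 78.3, 147 and 148 CPM at 24 h and 8.89, 82.9, 9.22 and 97.9 CPM at 7 days, and Camk2a, the kinase subunit of excitatory neurons, at 622, 1701, 2126 and 1172 CPM and 128, 1176, 164 and 1005 CPM. Per3, a clock gene, had 636, 451, 536 and 619 CPM and 140.1, 511, 208 and 495 CPM. Slk, a kinase, was higher in all 4 mice at 7 days than in any at 24 h, with 44.6, 60.3, 44.5 and 56.2 CPM at 24 h and 126, 72.5, 119 and 72.3 CPM at 7 days. Abca2, a lipid transporter, was at 40.97, 94.2, 72.5 and 80.96 CPM and 26.3, 42.6, 27.9 and 42.1 CPM, and its groups overlapped only through mouse 1 at 24 h. Their log2 fold changes were 0.92 (SE 0.20) and -1.06 (SE 0.23), both with an edgeR adjusted p of 0.131.

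CT010467.1 (chromosome 17, 39846353 to 39848201), which lies where RefSeq has a pseudogene of small-subunit ribosomal RNA, took 0.328, 1.33, 0.872 and 1.57 percent of all counts in the 24 h mice and 0.00834, 0.633, 0.00607 and 0.474 percent in the 7 days mice. Mice 1 and 3 at 7 days had the lowest shares and mouse 1 at 24 h was below mice 2 and 4 at 7 days. The vehicle mice had 0.00694 to 0.0101 percent, the level of mice 1 and 3 at 7 days. A test of means does not show this division within the 7 days group. The difference in means had an exact permutation p of 0.0857 (two-sided, 4 against 4 mice, smallest p possible 0.0286), and 0.286 after Benjamini-Hochberg adjustment over 6 library measures. The same exact test gave a p of 0.114 for total counts, 0.343 for genes detected, 0.743 for the share of mitochondrial genes, 0.143 for that of Malat1 and 0.229 for that of single-exon features. Total counts were 6441396 to 8090559 at 24 h and 6972577 to 12354785 at 7 days, so that 3 counts, the floor used here, came to 0.243 to 0.466 CPM. Intervals and floors of this kind cover counting error only. The part of the ribosomal share in the values above was not tested. Ribosomal RNA has near-identical copies, so the counts of CT010467.1 and of ENSMUSG00000118642, which overlaps it, are uncertain. ENSMUSG00000118642 was at 29.1, 61.02, 39.7 and 26.8 CPM at 24 h and 3.98, 10.7, 7.82 and 16.9 CPM at 7 days. Of the other features that do not code for protein, Tmem181b-ps, a pseudogene, was at 1008, 963, 1028 and 996 CPM and 258, 627, 403 and 670.5 CPM, D3Ertd254e at 23.0, 29.8, 26.4 and 17.04 CPM and 86.7, 32.2, 91.7 and 30.5 CPM, and Gm44848 at 6.702, 9.82, 9.63 and 6.04 CPM and 14.7, 16.4, 23.2 and 19.03 CPM. Tmem181b-ps has a protein-coding relative with which it can share reads.

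The labelled cell type was checked against its markers. Rbfox3, Snap25 and Syt1, which define neurons, were at 88.4 to 115, 2278 to 3547 and 1033 to 1585 CPM at 24 h, and at 59.3 to 112, 2496 to 4077 and 809.9 to 1490.0 CPM at 7 days. Markers of other cells were present. Astrocyte markers summed to 1249, 869, 855 and 888 CPM at 24 h and 712, 873, 508 and 781 CPM at 7 days, most of it Slc1a2, which neurons also express at a low level. Sox9, the astrocyte transcription factor, was the 1 of 9 astrocyte markers lower without overlap (11.1% against 2.72% of all genes), at 12.03, 7.89, 8.37 and 6.39 CPM and 3.64, 4.26, 1.401 and 3.78 CPM (edgeR adjusted p 0.141). Oligodendrocyte markers summed to 275, 238, 215 and 185 CPM and 413, 267, 252 and 240.4 CPM, with Mbp the largest in mouse 1 at 7 days at 187, 71.9, 106 and 68.0 CPM over the 7 days mice. Microglia markers summed to 88.1 to 179 CPM and 95.01 to 224 CPM, and endothelial markers to 18.9 to 40.8 CPM and 7.14 to 18.7 CPM. Of the 9 endothelial and pericyte markers, 4 passed the filter on low counts. Cdh5, an endothelial gene, was at 0 in all 4 mice at 7 days, from which no change since 24 h is read. Excitatory markers had a median log2 fold change of -0.34 over 12 genes, with 1 lower without overlap (8.33% against 2.72% of all genes), Nrgn, a calmodulin-binding protein, at 25.6, 24.9, 26.9 and 27.8 CPM and 16.3, 19.1, 12.1 and 14.4 CPM. Slc17a7, the vesicular glutamate transporter, was at 57.7, 83.8, 74.8 and 109.7 CPM and 166, 52.4, 142 and 60.03 CPM. Of 22 interneuron markers 2 were lower without overlap (9.09% against 2.72% of all genes), among them Sp8, a transcription factor, at 2.13 to 7.35 CPM and 0.234 to 1.68 CPM. Gad1, Sst and Vip, which define interneurons and their classes, overlapped, with log2 fold changes of 0.41, 0.06 and -0.25. The part that the makeup of the sorted nuclei has in the values above was not tested.

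**Figure D5:**
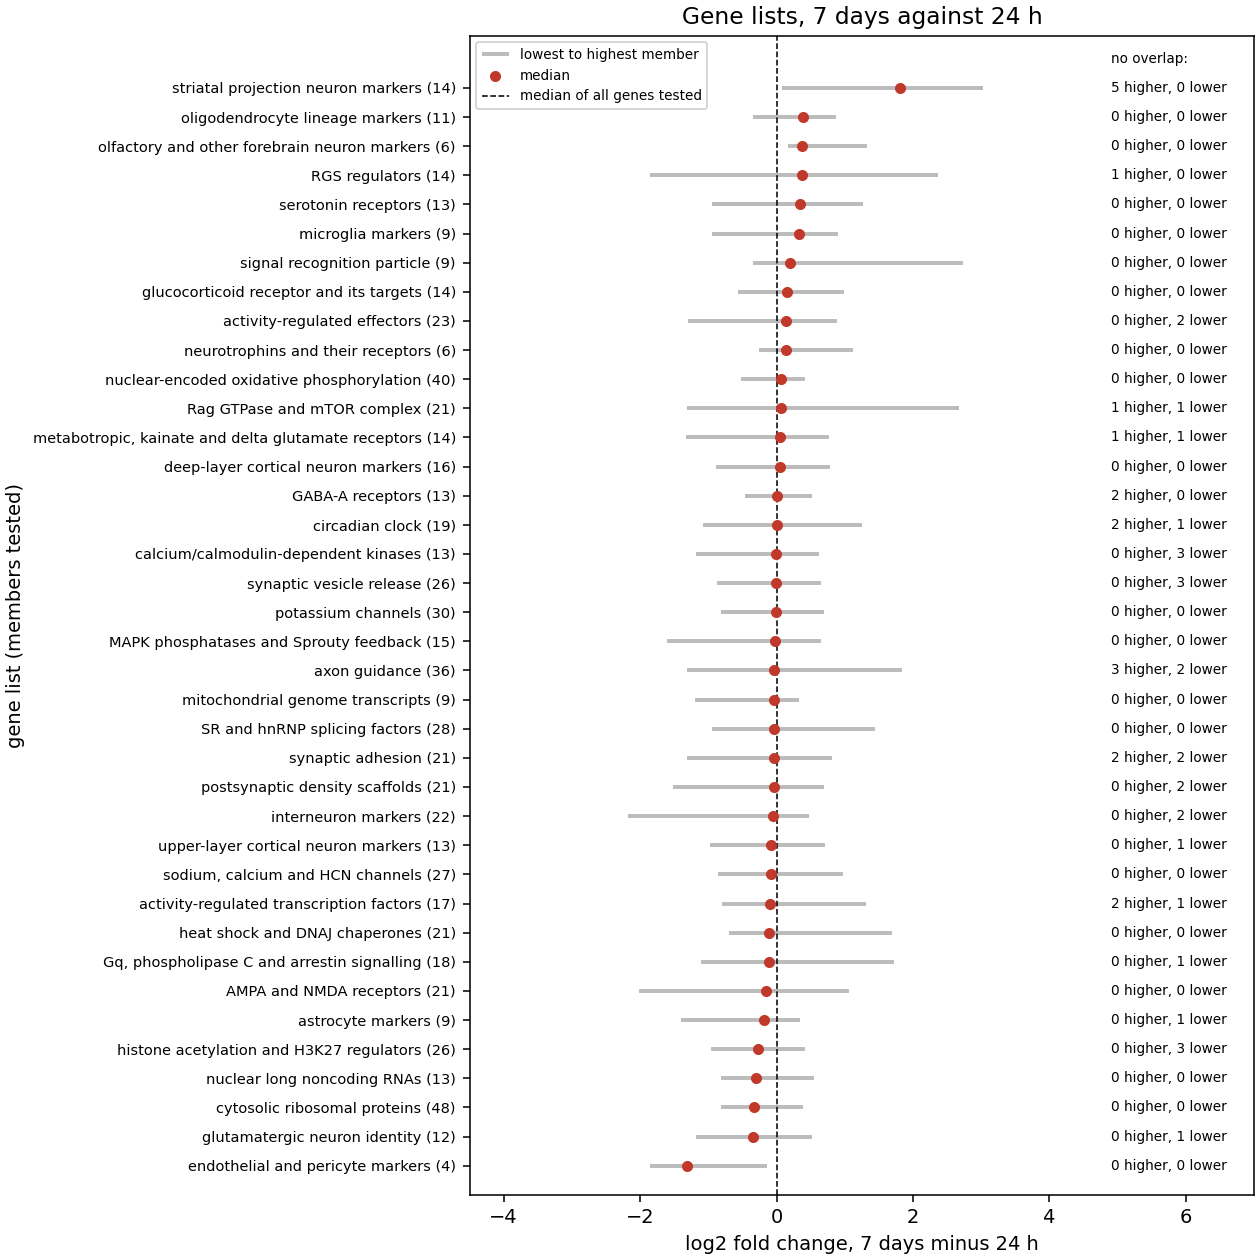
Each grey bar runs from the lowest to the highest log2 fold change (7 days minus 24 h) of a list's tested members, with the median as a red point; the dashed line is the median over all genes tested. The number of members whose groups did not overlap stands at the right, and the striatal markers have the highest median, 1.80.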

How the data were processed

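The deposited files give unnormalized read counts for each gene. The authors counted reads over exons of Ensembl genes (GRCm38 annotation) with featureCounts v2.0.0, per the file headers, leaving strand, pairing, multi-mapping and overlap at the defaults. Per the labels' protocols, cDNA was made with SMART-seq2 chemistry. The aligner of the RNA reads is not given in the sources used here. Symbols were matched for 99.5% of 55401 gene IDs.

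The counts of the 2 libraries of each mouse were summed (chi-square over degrees of freedom 1.40 to 2.85 within mice, so not duplicates), filtered with filterByExpr, scaled with TMM and fitted with edgeR 4.0.16 (R 4.3.3; glmQLFit, glmQLFTest) over 4 groups and 16 mice, including vehicle and 48 h mice, so that they share an estimate of spread, with p-values adjusted by Benjamini-Hochberg and called below 0.05. The script was tested on simulated data. Alternatives used DESeq2 1.42.0, limma 3.58.1, other scalings, filters, libraries and left-out mice. Floors are 3 counts. In the headers, 24 h mouse 1 and 7 days mouse 2 carry another mouse number; the group is that of the label.

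Genes were named by a rule: up to 12 protein-coding genes in each direction with no overlap and a mean log2 CPM of at least 2, past the threshold or else with the smallest p; 7 genes named by earlier results; the 2 members with the smallest p and defining or non-overlapping members of the lists described; and 2 non-coding features per direction. Members shown for the order of the mice were chosen after their values were seen. The members, the 38 lists and the rule were chosen with earlier results of these data known. Some members of the lists and of the named genes are counted but not reported by name here.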

Additional observations from a re-analysis of the deposited data

Results flagged for a closer look

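In 7 of 212 groups of 4 mice examined, where chance gives about 10.6, the highest or the lowest mouse stood far from the other 3. Mouse 1 at 24 h had 22989 genes detected against 24829 in the nearest mouse of its group. The same mouse had 32.3 CPM of Grk2 (nearest 43.1), 20.6 CPM of Grin2c, an NMDA receptor subunit (nearest 3.20), and 120.5 CPM of Tbr1, a transcription factor of deep-layer neurons (nearest 63.4). Mouse 1 at 7 days had 5.34 CPM of Rgs5, a marker of pericytes (nearest 0.672), and 7.79 CPM of Hdac7 (nearest 14.0). Mouse 2 at 7 days had 14.9 CPM of Nrn1 (nearest 10.2).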

How the results depend on the processing

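With DESeq2, 393 genes were called (227 higher, 166 lower, 30 list members), with libraries as units under duplicateCorrelation 955 (374, 581, 72), with no filter on low counts 504 (357, 147, 33; 4253 at an unadjusted p below 0.05), without the mice with another header number 125 (64, 61, 15), and with voom and quality weights 21 (1, 20, 3). Total counts only, the fit of the 2 groups alone (1485 at an unadjusted p) and a threshold of 0.01 gave 0 calls, 0 higher and 0 list members. With the mouse number as a replicate block 0 genes were called, 0 higher, with 0 list members (2287 at an unadjusted p). The labels give same-numbered mice no link beyond the number. The deviations of pairs 1 to 4 by label correlated at -0.22, -0.12, 0.23 and 0.16, which cannot show whether such mice were processed together. Leaving out a mouse gave 0 to 308 genes, 0 to 211 higher, 0 to 97 lower, 1615 to 3832 at an unadjusted p and 0 to 21 list members. The cause of these differences was not tested. RLE factors, each library alone, a stricter filter and thinned counts each gave 1. Genes without overlap numbered 921, with 375 higher and 537 lower under total counts only, 416 and 414 with library 1, and 384 and 379 with library 2. The difference in genes detected changed sign with library 2 (103), and the log2 fold change of Ntf3 did so when a mouse was left out (range -0.084 to 1.492; lowest without 7 days mouse 1). Of 2099 values of named genes 1836 kept their side of the threshold and 256 passed it only in the alternative. Calls higher among all calls were 57.8% with DESeq2, 39.2% with duplicateCorrelation and 70.8% with no filter. The number of mice, 4 a group, limits the precision.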

Other observations

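Members of further gene groups had these values, and of the members printed here Rragc alone did not overlap between the groups. Of 21 Rag GTPase and mTOR complex genes tested, 1 was higher and 1 lower without overlap. Each was 4.76% of the list, against 2.41% higher and 2.72% lower of all genes. Rragc, a Rag GTPase that signals amino acid supply, was at 34.6, 39.9, 43.6 and 42.96 CPM at 24 h and 61.99, 58.5, 57.2 and 70.8 CPM at 7 days, without overlap (log2 fold change 0.62 (SE 0.17), edgeR adjusted p 0.146), and vehicle mice had 49.4 to 60.5 CPM. Rictor, a subunit of the mTOR complex that controls Akt, was at 149, 136, 127 and 151 CPM and 242, 135, 240.2 and 204 CPM, with overlap. Among glucocorticoid targets Fkbp5, a co-chaperone of the receptor, was at 9.90, 6.399, 5.96 and 10.7 CPM and 13.3, 10.7, 18.1 and 13.99 CPM (edgeR adjusted p 0.251), and Zbtb16, a transcription factor, at 3.96, 10.7, 11.9 and 6.98 CPM and 25.1, 7.73, 26.5 and 7.28 CPM. Hspa5, the chaperone of the endoplasmic reticulum, was at 173, 477, 501 and 288 CPM and 1028, 509.8, 814 and 450.5 CPM (edgeR adjusted p 0.204). In both Zbtb16 and Hspa5 mice 1 and 3 were the highest at 7 days. The mitochondrial ribosomal RNA mt-Rnr2 was at 353, 379, 309 and 304 CPM and 43.02, 393, 28.4 and 455 CPM, where mice 1 and 3 at 7 days were the lowest of the 8. These are values, with no call by edgeR in any of them.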
